A study of Mus musculus with 17 samples.

Results

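The disease state that remained in the liver of mice treated with an antibody against claudin-1 (CLDN1) was described by comparing 6 antibody-treated diseased mice with 5 regular diet mice, 11 of the 17 libraries of the series. Libraries were taken by their titles, and 18624 of the 52545 genes in the table, which reached a value of 10 in 5 or more of all 17 libraries, entered the comparison. A gene present only in diseased mice can pass this filter through any 5 of them, while a gene present only in regular diet mice needs all 5. The filter therefore favours genes that are higher in disease. All mice were male C57BL/6J, were 32 weeks old when sampled, and gave non-tumorous liver, 1 library per mouse. The regular diet mice received neither carcinogen nor injections according to their labels. The antibody mice had received diethylnitrosamine (DEN) once, at 100 mg/kg in week 1, were fed CDA-HFD, a choline-deficient, L-amino acid-defined high-fat diet, and were injected intraperitoneally with 500 µg of CLDN1 mAb once a week for 16 weeks. The 6 vehicle mice had the same DEN and diet with PBS injections, and serve here only as a second diseased group. Since DEN, diet, injections and antibody were all absent from the regular diet group, their effects cannot be told apart in this comparison.

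DEN is activated in hepatocytes to a compound that damages DNA, and a diet short of choline keeps hepatocytes from packing fat into lipoproteins for export. In such a liver, dying fat-laden hepatocytes draw in monocytes that become lipid-associated macrophages, stellate cells and portal fibroblasts turn into matrix-producing cells, and bile duct cells multiply at the portal tracts. Claudin-1 is a tight junction protein that hepatocytes and bile duct cells also expose outside junctions. In bulk RNA from whole liver, fewer cells of a type and less RNA per cell cannot be told apart.

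The deposited totals differed between the groups, at 39.91 ± 3.43 M in antibody (SD, n = 6) and 54.77 ± 11.2 M in regular diet (n = 5), with no overlap (two-sided exact permutation p = 0.00433). Fragments estimated from the step between low values were 41.6 ± 9.57 M and 38.6 ± 9.6 M (two-sided exact permutation p = 0.615). Regular diet replicate 1 stood apart, with the highest total (74.6 M) and a position of 122.4 on the second principal component, where the other regular diet libraries lay between -50.7 and -40.7. In this library the 3726 genes with the fewest exon bases were higher than in the other regular diet libraries by a median of 0.98 on the log2 scale, and the 3726 with the most were lower, at -0.72. Antibody replicate 1 showed a weaker profile of the same kind (0.27 and -0.27). Leading counts are therefore given with and without regular diet replicate 1. The liver label was checked on hepatocyte genes: Apoa1, which encodes apolipoprotein A-I, lay between 257000 and 508000 in antibody and between 363000 and 1650000 in regular diet, while Alb was listed at 0 in all 17 libraries, a failed estimate. Of neighbouring tissues, muscle Myh4 was at 0 in all libraries, pancreatic Cpa1 reached at most 2.75 in these groups and intestinal Cdx2 at most 1.24. Other markers of these tissues were present: pancreatic Cela2a at 38.2 to 147 in regular diet and 46.5 to 89.8 in antibody, and Vil1 (villin, of intestinal and bile duct epithelium) at 8.75 to 22.9 and 188 to 500. Of 6 tested markers of intestinal and gallbladder epithelium, 4 were higher and none lower in antibody, at a median of 2.13 and a summed level of 6820 to 13800 against 5530 to 13000. The part of such tissue in the results was not tested. Adipoq, made by fat cells, was at most 2.63 in regular diet and reached 28.7 in antibody replicate 5.

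The antibody-treated liver differed from regular diet liver in 7247 genes (38.9% of those tested), with 4613 higher (24.8%) and 2634 lower (14.1%), and 3683 genes (19.8%) were higher and 1095 (5.88%) lower by at least 2-fold. All antibody mice lay above all regular diet mice in 3463 genes (18.6%) and below them in 1944 (10.4%). Of the genes tested, 49 were at 0 in every regular diet library, 48 of them called higher, and 1 was at 0 in every antibody library. Without genes at 0 throughout a group or with failed estimates the counts were 4555 higher and 2629 lower. The median difference over all genes was 0.01 on the log2(value + 1) scale. For 7849 genes (42.1%) the 95% interval of the difference lay wholly within 2-fold in either direction, and 6850 of these (36.8% of all) were not called. Without regular diet replicate 1 the counts were 5142 higher and 3886 lower, and 4415 of the 4613 higher and 2342 of the 2634 lower calls were shared. These counts then differed with gene length. The 3726 genes with the fewest exon bases had 1272 higher and 484 lower (median 0.22), and the 3726 with the most had 844 and 1168 (median -0.15). With all libraries the counts were 1024 and 550, and 884 and 521. The cause of this difference was not tested. The split between higher and lower depended on the scale of the libraries: it was 7063 higher and 831 lower when every library was set to the same total, which moved the median of all genes to 0.44, and 3553 higher and 3725 lower after quantile normalization, with a median of -0.12. Over 50 lists of liver genes, 448 of 1073 distinct members were higher and 240 lower. The plot of list shares shows which lists leaned which way.

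**Figure D1:**
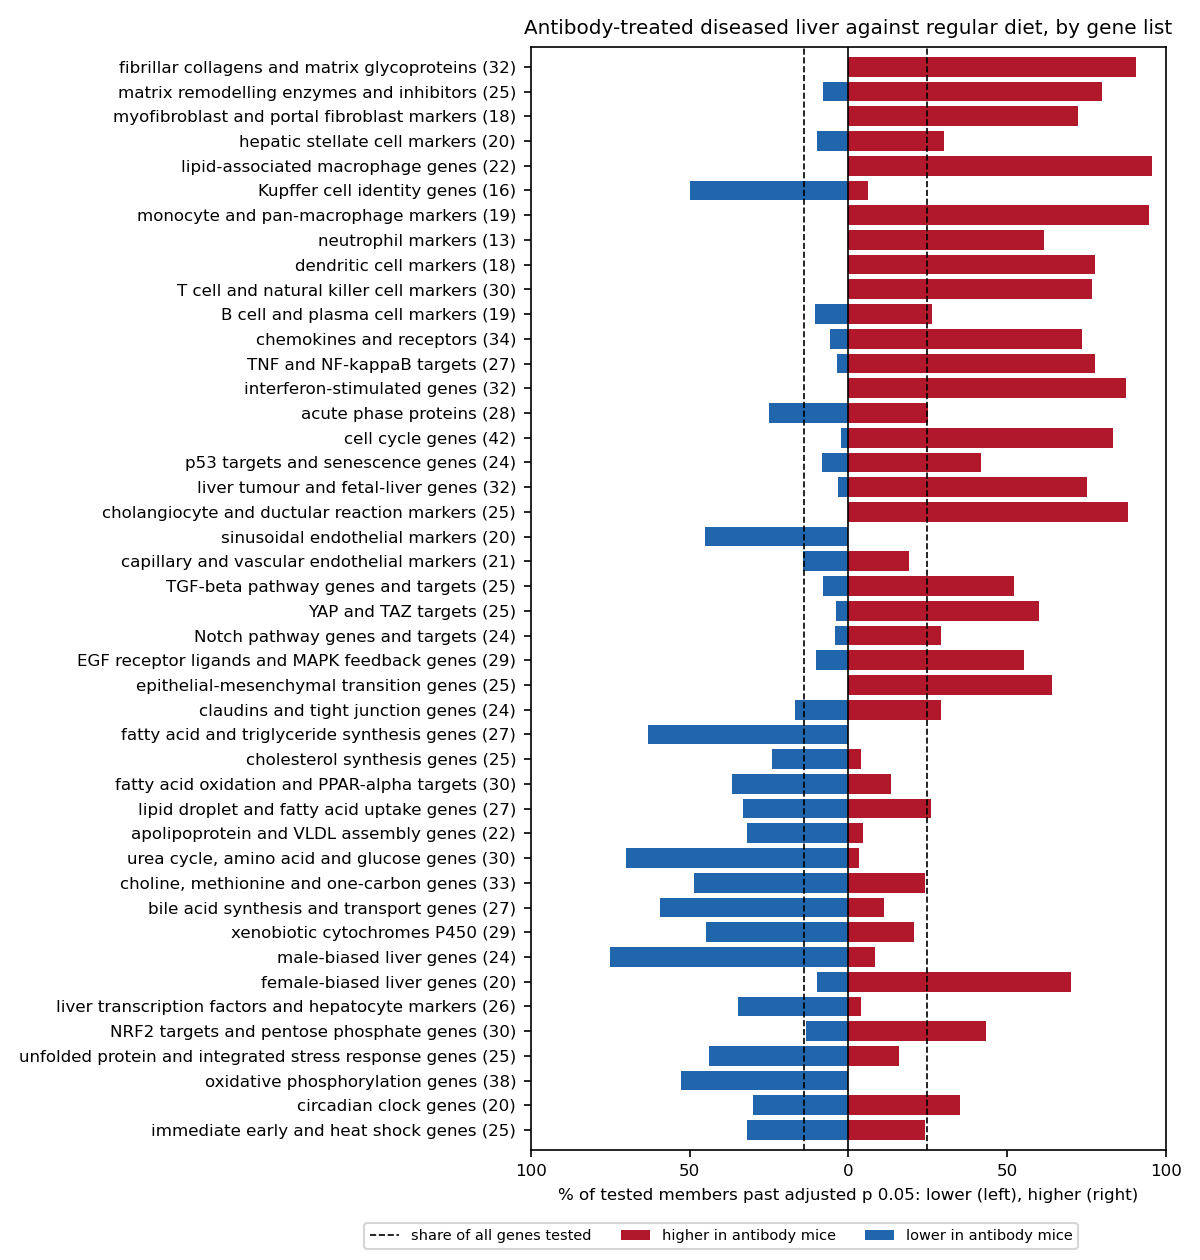
Share of the tested members of each gene list (number tested in parentheses) that were higher (right) or lower (left) in antibody-treated diseased liver than in regular diet liver at an adjusted p under 0.05, with dashed lines at the shares of all genes tested, 24.8% and 14.1%. Lists with at least 10 tested members are drawn, and matrix, macrophage, lymphocyte, cell cycle and bile duct lists extend right while lists of hepatocyte metabolism extend left.

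Genes of scar matrix were almost all higher. Among fibrillar collagens and matrix glycoproteins, 29 of 32 members were higher and none lower, with a median difference of 2.28. Col1a1, a chain of type I collagen, had normalised counts of 280, 194, 130, 328 and 220 in regular diet and ran from 4110 through a median of 5260 to 11100 in antibody. The groups were separated by more than 10-fold at their nearest points, and the difference was 4.75 (SE 0.37, adjusted p = 2.31e-08). Col3a1, the chain of type III collagen, rose by 3.52 and Tnc, the injury matrix protein tenascin C, by 3.62. Remodelling enzymes and their inhibitors were higher in 20 of 25 members and lower in 2, with a median of 2.93. Timp1, an inhibitor of matrix metalloproteinases, was at 22.1, 18.4, 7.88, 4.13 and 4.58 in regular diet, against 440 to 1040 with a median of 669 in antibody. This difference of 6.00 (SE 0.36, adjusted p = 1.92e-09) came with no overlap. Mmp7, an epithelial metalloproteinase, lay under 10 in every regular diet mouse and between 575 and 3920 in antibody. One of the members that fell was Loxl4, a collagen cross-linking oxidase, with medians of 280 and 82.8 (difference -1.80).

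The cells that make this matrix were seen through their markers. Of 18 myofibroblast and portal fibroblast markers tested, 13 were higher and none lower, with a median of 2.17. Dpt (dermatopontin, a fibroblast matrix protein) rose by 3.24 and Entpd2, an ectonucleotidase of portal fibroblasts, by 2.15. Acta2, the actin of contractile myofibroblasts, was at 545, 114, 220, 300 and 38.2 in regular diet and at 540, 613, 308, 333, 4140 and 317 in antibody. Its groups overlapped, the high value belonged to antibody replicate 5 alone, and the difference of 1.77 (adjusted p = 0.0403) did not pass without that library (1.21) or in several other settings. Hepatic stellate cell markers were mixed, with 6 of 20 higher, 2 lower and a median of 0.43. These shares, 30% and 10%, were near those of all genes. Pdgfrb, the platelet-derived growth factor receptor of stellate cells, rose by 2.33 and Cygb (cytoglobin) by 2.50, while Vipr1, a neuropeptide receptor, fell by 1.42.

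Macrophage genes showed some of the largest rises. Of 22 lipid-associated macrophage genes, 21 were higher and none lower, with a median of 3.70. Their summed level overlapped between groups, at 91100 to 1050000 in regular diet and 983000 to 1180000 in antibody. Gpnmb, a lysosomal membrane glycoprotein, was at 88.4, 84, 57.8, 77.1 and 194 in regular diet and at 14700 to 47300 with a median of 36200 in antibody. The difference was 8.41 (SE 0.52, adjusted p = 3.09e-09). Mmp12, macrophage elastase, had 73.7, 90.6, 51.6, 57.8 and 133 in regular diet and 15000 to 30800 in antibody, with a median of 21100. Its difference was 8.08 (SE 0.35, adjusted p = 8.96e-11). Trem2, the lipid receptor that defines these cells, had 310, 197, 187, 212 and 203 in regular diet. In antibody it lay in a narrow range from 3770 through 4000 to 4570, a difference of 4.21. Spp1 (osteopontin) rose by 4.29, Clec7a, a receptor for fungal glucans, by 4.87, and Itgax, the integrin CD11c, by 5.83. Monocyte and general macrophage markers were higher in 18 of 19 members, with a median of 2.66. Their summed level was 82700 to 136000 in antibody and 6430 to 22500 in regular diet. They included Cd68 (3.64), the monocyte chemokine receptor Ccr2 (3.57) and the fractalkine receptor Cx3cr1 (4.78).

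Genes of resident Kupffer cells went the other way, with 8 of 16 lower, 1 higher and a median of -0.75. Timd4, which binds dead cells and marks long-resident Kupffer cells, was at 523, 432, 243, 458 and 532 in regular diet and at 9.17 to 30.9 in antibody, a difference of -4.71 (SE 0.45, adjusted p = 2.33e-07). Cd163, the scavenger receptor for haemoglobin, fell by 5.53, from between 220 and 1120 to between 6.15 and 19.2. Clec4f, a Kupffer cell lectin, fell by 1.91, but its groups overlapped: the highest antibody value was 3380 and the lowest regular diet value 3000. The member that rose was Vcam1, an adhesion molecule also made by activated endothelium (2.24). The Kupffer cell markers Vsig4 and Cd5l overlapped as well. Vsig4 was at 830 to 1930 in regular diet and 624 to 1520 in antibody, and Cd5l at 2880 to 7000 and 2000 to 7280. The summed level of the list also overlapped, at 45100 to 106000 in regular diet and 33000 to 52600 in antibody. Without regular diet replicate 1, 6 members were lower and 2 higher. Under the same total for all libraries 5 were lower and 2 higher, with a median of -0.31.

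AP-1, the transcription factor family of Fos and Jun, binds the letters TGANTCA, where N is any base. Both Gpnmb and Mmp12 carry these letters within 300 bases around a RefSeq start site (250 before, 50 after, GRCm38.p6), and their windows are shown to give the sequence context, with the match in capitals. The Gpnmb window is chr6:49036268-49036567 on the plus strand, and the Mmp12 window is chr9:7347124-7347423 on the plus strand, the 1 of its 2 windows with a match.
Gpnmb: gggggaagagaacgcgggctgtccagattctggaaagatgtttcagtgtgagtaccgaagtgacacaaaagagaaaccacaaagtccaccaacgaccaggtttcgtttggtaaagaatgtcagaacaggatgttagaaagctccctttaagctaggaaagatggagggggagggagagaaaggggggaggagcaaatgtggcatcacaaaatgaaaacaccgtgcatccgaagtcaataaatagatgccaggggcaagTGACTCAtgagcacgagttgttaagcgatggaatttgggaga
Mmp12: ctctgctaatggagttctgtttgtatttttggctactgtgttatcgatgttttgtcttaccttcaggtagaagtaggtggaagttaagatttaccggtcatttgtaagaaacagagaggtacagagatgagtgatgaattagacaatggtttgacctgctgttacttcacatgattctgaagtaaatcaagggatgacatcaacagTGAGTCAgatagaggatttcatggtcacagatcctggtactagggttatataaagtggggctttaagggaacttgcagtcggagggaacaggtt
Of all 32851 promoter windows, 7.81% held these letters on either strand. They were in 6 of 21 windows of lipid-associated macrophage genes (28.6%) and in 4 of 17 of remodelling enzymes and inhibitors (23.5%). A match is a string of letters and was not tested as a binding site.

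**Figure D2:**
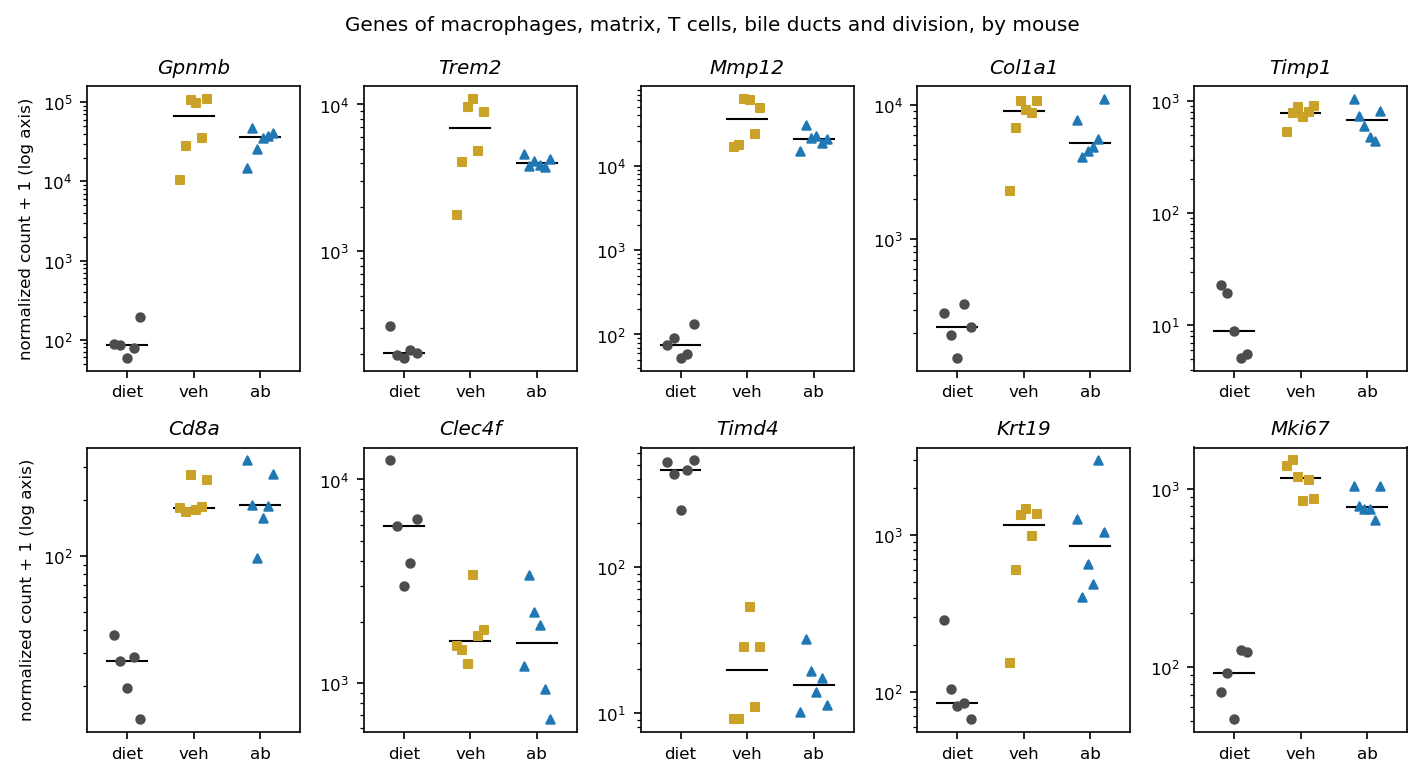
Normalised counts plus 1 of 10 genes in each mouse on log axes, for regular diet (diet, n = 5), vehicle (veh, n = 6) and antibody (ab, n = 6), with bars at the medians. Gpnmb, Trem2, Mmp12, Col1a1, Timp1, Cd8a, Krt19 and Mki67 in antibody mice lie above every regular diet mouse, Timd4 lies below, and Clec4f overlaps.

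Markers of T cells, natural killer cells, dendritic cells and neutrophils were also mostly higher. Of 30 T cell and natural killer cell markers, 23 were higher and none lower, with a median of 2.02, although quantile normalization called 4 members lower. Their summed level was 2730 to 5470 in antibody and 1410 to 4210 in regular diet. Cd8a, the co-receptor of cytotoxic T cells, was at 36.8, 26.2, 18.4, 27.5 and 12.2 in regular diet and at 96.8 to 326 with a median of 186 in antibody, a difference of 3.02 (SE 0.31, adjusted p = 5.19e-07). Gzmk, granzyme K of activated T cells, was at 2.46, 0, 0, 1.38 and 0 in regular diet and at 20.7 to 84.1 in antibody. Klrd1, the CD94 receptor of natural killer cells, rose by 2.94. Of other T cell markers, Cd3e was at 9.63 to 24.9 in regular diet and 42.3 to 119 in antibody. Cd4 did not rise, at 59.2 to 415 with a median of 153 in regular diet and 73 to 148 with a median of 106 in antibody. Dendritic cell markers were higher in 14 of 18 members, among them Ccl22, a chemokine for regulatory T cells (4.93). The summed level of this list was 12900 to 16000 in antibody, within the 7830 to 29600 of regular diet. Neutrophil markers were higher in 8 of 13, among them Csf3r, the receptor for granulocyte colony-stimulating factor (2.23). The count was 6 after quantile normalization, 7 with antibody mice 1 to 3 only and 5 with mice 4 to 6 only. S100a8 overlapped, at 10.5 to 194 in regular diet and 130 to 274 in antibody, as did S100a9, at 25.4 to 268 and 183 to 414. Ly6g was at 0 in all regular diet mice and reached at most 6.92 in antibody. B cell and plasma cell markers were higher in 5 of 19 members and lower in 2, shares near those of all genes. Quantile normalization gave 4 higher and 7 lower, and turned their median from 0.40 to -0.18. Cd22, a B cell receptor inhibitor, rose by 2.01, whereas Sdc1 (syndecan 1, also abundant in hepatocytes) fell by 1.09.

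Most genes of inflammatory signalling were higher. Of 34 chemokines and their receptors, 25 were higher and 2 lower, with a median of 2.55. The monocyte attractants Ccl2 and Ccl7 rose by 3.20 and 4.16 and the neutrophil attractant Cxcl2 by 2.89, while Cxcl13, the B cell attractant, fell by 3.91. Tnf itself was at 12.3, 3.94, 5.25, 8.26 and 18.3 in regular diet and between 177 and 234 in antibody, with a difference of 4.44 (SE 0.28, adjusted p = 3.12e-09). Of 27 TNF and NF-kappaB targets, 21 were higher and 1 lower. Tnfaip3, the feedback inhibitor A20, rose by 2.23, and the member that fell was Sod2, mitochondrial superoxide dismutase (-0.77). Interferon-stimulated genes were higher in 28 of 32 members with none lower and a median of 1.48, for example Oasl2 (2.79) and Ifi44 (2.56). Acute phase proteins were higher in 7 of 28 members, a share near that of all genes, and lower in 7. The counts were 11 and 4 under the same total, and 13 and 1 after quantile normalization. Lcn2 (lipocalin 2, which binds bacterial iron carriers) was at 1310, 150, 109, 110 and 1360 in regular diet and at 11300 to 40100 in antibody, and Orm2 (orosomucoid) rose by 3.94. Fga, the alpha chain of fibrinogen, fell by 1.30, a call lost after quantile normalization (-0.46).

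Genes of cell division were higher in 35 of 42 members and lower in 1, with a median of 2.37, and without regular diet replicate 1 in 36 and 1. Mki67, the proliferation antigen Ki-67, was at 71.2, 91.9, 49.9, 124 and 121 in regular diet. In antibody it ran from 671 through 787 to 1040, a difference of 3.26 (SE 0.22, adjusted p = 6.91e-09). Cdk1, the kinase that starts mitosis, rose by 2.79, from medians of 66.1 to 431, and its partner Ccnb1 (cyclin B1) by 3.97, from 9.19 to 158. The member that fell was Tk1, thymidine kinase (-1.33), which overlaps Afmid in the genome. Strand was not stated for the counting, so reads of these genes may not be told apart. Its highest regular diet value, 3260, was in replicate 1, and the difference was -1.11 without that library.

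Promoters of mitotic genes often hold the CCAAT box and the cell cycle homology region, TTTGAA. Both were searched on each strand, so that ATTGG and TTCAAA also count. The RefSeq windows of 3 of the raised genes (GRCm38.p6, minus strand) are shown with matches in capitals: Mki67 at chr7:135716330-135716629, Cdk1 at chr10:69352863-69353162 and Ccnb1 at chr13:100786437-100786736.
Mki67: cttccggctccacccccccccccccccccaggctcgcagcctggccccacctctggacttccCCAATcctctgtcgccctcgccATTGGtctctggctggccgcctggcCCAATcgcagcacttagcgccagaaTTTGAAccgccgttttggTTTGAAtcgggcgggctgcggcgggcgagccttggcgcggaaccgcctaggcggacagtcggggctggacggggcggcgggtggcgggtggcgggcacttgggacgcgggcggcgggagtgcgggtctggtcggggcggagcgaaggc
Cdk1: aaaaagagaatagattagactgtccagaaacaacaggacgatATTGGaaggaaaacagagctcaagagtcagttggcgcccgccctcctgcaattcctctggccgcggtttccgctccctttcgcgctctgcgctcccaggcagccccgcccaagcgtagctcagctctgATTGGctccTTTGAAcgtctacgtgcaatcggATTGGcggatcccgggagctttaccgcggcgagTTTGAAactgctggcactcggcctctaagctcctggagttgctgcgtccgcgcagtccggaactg
Ccnb1: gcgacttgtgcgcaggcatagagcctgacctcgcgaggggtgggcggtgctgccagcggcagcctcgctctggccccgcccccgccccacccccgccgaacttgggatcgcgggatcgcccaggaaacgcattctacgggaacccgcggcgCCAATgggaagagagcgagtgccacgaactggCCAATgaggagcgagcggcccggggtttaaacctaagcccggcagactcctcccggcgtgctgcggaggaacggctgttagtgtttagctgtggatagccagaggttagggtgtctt
The Mki67 and Cdk1 windows each held 3 CCAAT boxes and 2 homology regions, and the Ccnb1 window held 2 CCAAT boxes. CCAAT boxes were in 26 of 36 windows of cell cycle genes (72.2%) and in 37.4% of all windows. The homology region was in 18 of 36 (50%) and in 17.9% of all windows. No window of the cell cycle genes held the AP-1 letters.

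Genes of DNA damage response and of liver tumours were measured in tissue labelled non-tumorous. Of 24 p53 targets and senescence genes, 10 were higher and 2 lower, with a median of 0.39. Cdkn1a, the cell cycle inhibitor p21, was at 241 to 678 in regular diet and 693 to 1360 in antibody (difference 1.02), and Phlda3, an inhibitor of AKT, rose by 3.49. Tumour and fetal-liver genes were higher in 24 of 32 members and lower in 1, with a median of 2.03. Ly6d, a surface protein, rose by 6.36, from 106, 80.1, 30.6, 59.2 and 87.1 to between 3190 and 11800. Spink1, a secreted protease inhibitor, rose by 5.21 and Afp (alpha-fetoprotein) by 2.17. Gpc3 (glypican 3) overlapped between groups, at 18.4 to 101 and 73 to 441, and its call (difference 1.88, adjusted p = 0.021) was lost without antibody replicate 5 (1.65) or regular diet replicate 3 (1.51). H19, an imprinted RNA chosen after its values were seen, was at 12.3 to 18.4 in regular diet and at 728, 129, 319, 91.7, 895 and 4890 in antibody. All antibody mice were higher, with a spread of more than 10-fold among themselves.

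Bile duct markers were higher in 22 of 25 members with none lower, at a median of 3.22 and a summed level of 107000 to 160000 against 34200 to 92400. Epcam, an epithelial adhesion molecule, was at 56.5, 87.9, 58.6, 74.3 and 70.3 in regular diet and at 828 to 2170 with a median of 1420 in antibody. It differed by 4.26 (SE 0.36, adjusted p = 7.33e-08). Krt19, the duct keratin, rose by 3.07 and was highest in antibody replicate 5 at 3000, with the other antibody mice at 405 to 1260. Sox9, a transcription factor of ducts and of reacting hepatocytes, rose by 1.35. Sinusoidal endothelial markers were lower in 9 of 20 members with none higher, at a median of -1.05. Ehd3, a membrane trafficking protein of liver sinusoids, fell by 1.82, Oit3 (a secreted protein of the same cells) by 2.17 and Gata4, a transcription factor of these cells, by 1.02. Other endothelial markers overlapped between regular diet and antibody. Stab2 was at 1760 to 2720 and 1450 to 2890, Lyve1 at 130 to 727 and 59.2 to 680, and Pecam1 at 775 to 1200 and 174 to 1130. Under the same total for all libraries 4 members of the sinusoidal list were lower and 2 higher, and the call of Gata4 was lost. The mean level of the list was lowest in antibody replicates 3 and 1, at 7.79 and 8.65 on the log2 scale against 8.90 to 9.77 in the other antibody mice. These are also the antibody libraries with the highest values of short genes relative to the others (0.12 and 0.27), and the part of RNA quality in this spread was not tested. General vascular markers were mixed, with 4 of 21 higher and 3 lower, shares near those of all genes. Under the same total 5 were higher and 0 lower. Cd34, a marker of capillary endothelium and fibroblasts, rose by 2.53, and Cdh5, the endothelial cadherin, fell by 1.69, a call lost under the same total.

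The target of the antibody, Cldn1, was at 4670, 7890, 6730, 8230 and 6650 in regular diet and at 5040, 3960, 4770, 4280, 2430 and 3860 in antibody. The groups overlapped, antibody replicate 5 was lowest, and the difference of -0.76 (95% interval -1.55 to 0.03) did not pass (adjusted p = 0.12), although it did when only these groups were fitted. RNA level does not show whether the antibody bound the protein. Among 24 claudins and other tight junction genes, 7 were higher and 4 lower, shares near those of all genes, and 11 and 1 under the same total. Cldn4, a claudin of bile ducts, rose by 5.09, from 2.75 to 16.8 in regular diet to 143 to 424 in antibody.

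Signalling pathways were read through ligands, receptors and targets. Of 29 EGF receptor ligands and MAPK feedback genes, 16 were higher and 3 lower, or 14 and 6 without regular diet replicate 1. The ligand Areg (amphiregulin) was at 0, 2.62, 0, 1.38 and 1.53 in regular diet and at 50.1 to 281 in antibody, and Nrg1 (neuregulin 1) rose by 4.41. The receptor Egfr was at 20000 to 34000 and 8580 to 18800, with no overlap, but its difference of -1.04 (adjusted p = 0.0383) was lost without regular diet replicate 1 (-0.96) and in several other settings. Etv4, a transcription factor induced by MAPK, rose by 3.94, whereas Dusp1, a phosphatase that ends MAPK signals, fell by 2.89. Ccnd1 (cyclin D1), of the same list, rose by 3.49, from 603 to 1600 in regular diet to 9730 to 14600 in antibody. Of 25 YAP and TAZ targets, 15 were higher and 1 lower, or 14 and 5 without regular diet replicate 1. Ankrd1, a muscle and stress ankyrin protein, rose by 4.17. Of 25 TGF-beta pathway genes, 13 were higher and 2 lower, led by the ligand Tgfb2 (3.30) and by Itgb6, an integrin that activates TGF-beta (4.46). In the Notch list 7 of 24 were higher, a share near that of all genes, and 1 lower. It had 5 higher and 6 lower after quantile normalization, and 6 and 4 without regular diet replicate 1. The endothelial ligand Dll4 fell by 2.15 and the target Hey1 rose by 1.56. Epithelial-mesenchymal transition genes were higher in 16 of 25 with none lower, or in 17 with 3 lower without regular diet replicate 1. An example is S100a4, a calcium-binding protein also made by leukocytes (4.32).

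Enzymes that build fatty acids and triglycerides were lower in 17 of 27 members with none higher and a median of -1.35, although each other scaling called 3 members higher. Scd1, which desaturates fatty acids, was at 337000, 825000, 534000, 733000 and 443000 in regular diet. In antibody it lay between 15300 and 34700 with a median of 21000, a difference of -4.62 (SE 0.42, adjusted p = 1.47e-07). Fasn (fatty acid synthase) fell by 2.01, from 27700 to 44200 down to 6140 to 12400. Elovl3, an elongase, fell from 40200 to 61500 in regular diet to 152 to 817 in antibody, although it overlaps Pitx3 in the genome and strand was not stated. Other named genes that overlap another gene, among them Mmp12, Col3a1, Spp1 and Dusp1, carry the same caution. Cholesterol synthesis lay closer to the regular diet level, at a median of -0.22. Of 25 members, 1 was higher and 6 lower (24%, against 14.1% of all genes). Without regular diet replicate 1, 1 was higher and 8 lower, with a median of -0.03. The median turned to 0.23 under the same total, with 5 higher and 4 lower, and to 0.13 after quantile normalization, with 5 and 2. On the deposited scale the mean level of the list was lower in all 6 antibody mice, at 11.61 to 12.39 against 12.4 to 12.6. Sqle (squalene epoxidase) rose by 0.69 and Tm7sf2 (a sterol reductase) fell by 1.70.

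Genes of fat oxidation and storage moved in both directions. Of 30 genes of fatty acid oxidation and PPAR-alpha targets, 11 were lower and 4 higher. The lean turned with the scale, to 6 lower and 7 higher under the same total and to 3 lower and 6 higher after quantile normalization, and with antibody mice 1 to 3 only it was 3 and 3. Cpt1a, which brings fatty acids into mitochondria, was at 7600, 18600, 18200, 18900 and 22000 in regular diet and at 13700 to 28100 in antibody, and did not pass (0.46, 95% interval -0.12 to 1.05) except under the same total (0.90) and after quantile normalization (0.96). Acot1, an acyl-CoA thioesterase, fell by 3.41, while Fgf21, a fasting and stress hormone, rose by 3.41 and Cyp4a31 by 2.15. Of 27 genes of lipid droplets and fatty acid uptake, 7 were higher, a share near that of all genes, and 9 lower. The counts were 10 and 6 under the same total, and 8 and 5 after quantile normalization. Lpl (lipoprotein lipase, also made by macrophages) rose by 3.17, from 1460 to 3510 up to 18300 to 26100. Cidec, which enlarges lipid droplets, rose by 3.68, and G0s2, an inhibitor of fat breakdown, fell by 2.43. Apolipoprotein and lipoprotein assembly genes were lower in 7 of 22 members and higher in 1, the latter being Apoa4 (2.61). Each other scaling left 2 lower and 2 higher, leaving out regular diet replicate 1 left 4 lower, and antibody mice 1 to 3 alone gave 1 lower. Mttp, which loads fat onto lipoproteins, fell by 1.16.

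Amino acid and glucose metabolism was lower in 21 of 30 members and higher in 1, with a median of -1.22. After quantile normalization 12 were lower, and with antibody mice 1 to 3 only 8. G6pc, which releases glucose, was at 13400, 41100, 44400, 72300 and 77900 in regular diet and at 1990 to 3980 in antibody, a difference of -3.99 (SE 0.53, adjusted p = 9.93e-06). Cps1, the first enzyme of the urea cycle, fell by 1.49 and Hal (histidine ammonia-lyase) by 2.33. The call of Cps1 was lost after quantile normalization (-0.67). Pck1, a gluconeogenic enzyme, did not pass (-1.09, adjusted p = 0.12), but passed without regular diet replicate 1 (-1.60, adjusted p = 0.0095), whose value of 28500 lay far below the 124000 to 205000 of the other regular diet mice. The member that rose was Glul (glutamine synthetase of hepatocytes around the central vein), at 30400 to 53000 and 38900 to 95500. Its adjusted p of 0.0445 was lost on leaving out most single libraries. Of 33 choline, methionine and one-carbon genes, 16 were lower and 8 higher, the latter a share near that of all genes. Gldc, the glycine cleavage decarboxylase, fell by 2.63. Psat1, an enzyme of serine synthesis, rose by 3.78, and Pcyt1b, which activates choline for phosphatidylcholine, rose by 3.58.

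**Figure D3:**
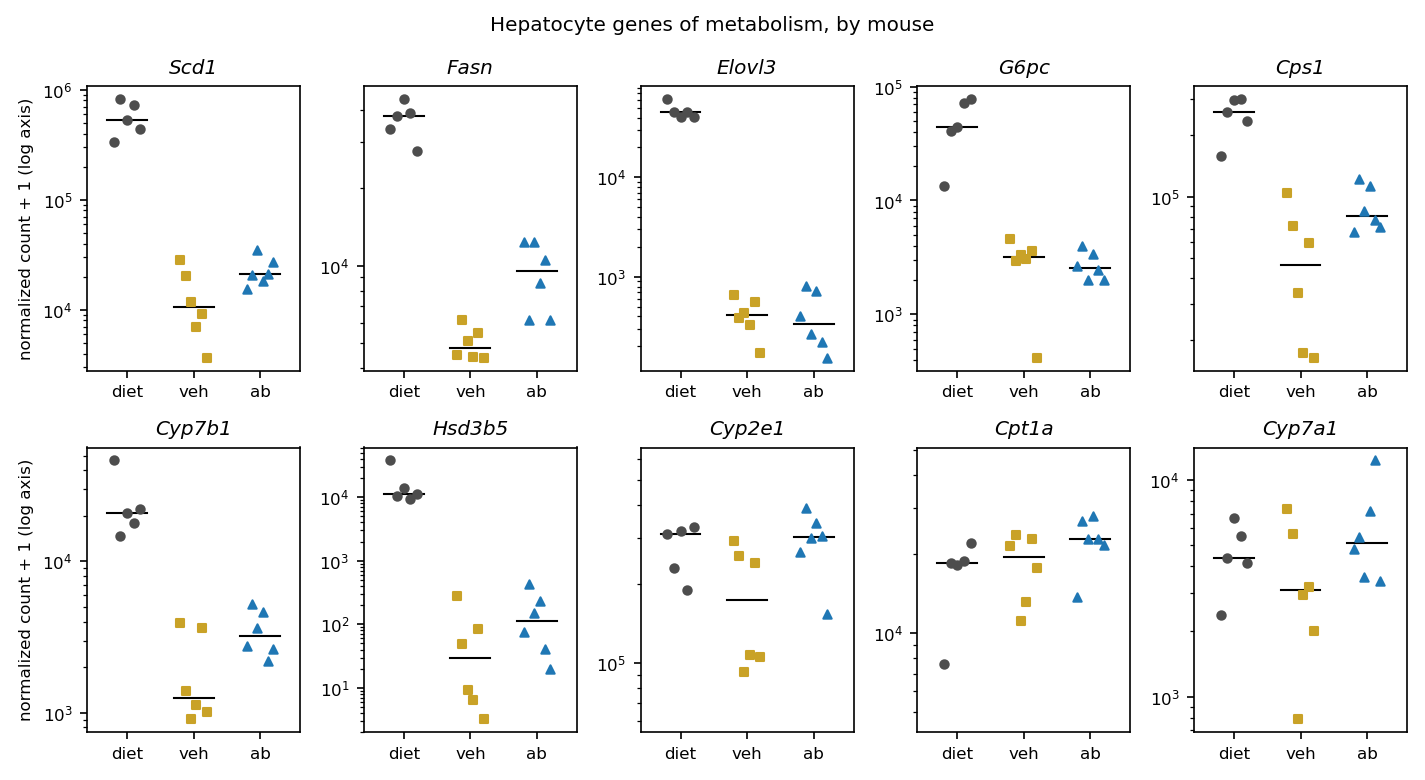
Normalised counts plus 1 of 10 hepatocyte genes in each mouse on log axes, for regular diet (diet, n = 5), vehicle (veh, n = 6) and antibody (ab, n = 6), with bars at the medians. Scd1, Fasn, Elovl3, G6pc, Cps1, Cyp7b1 and Hsd3b5 in antibody mice lie below every regular diet mouse, while Cyp2e1, Cpt1a and Cyp7a1 overlap with regular diet.

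Bile acid genes were lower in 16 of 27 members and higher in 3, with a median of -0.87. Fewer were lower under the same total (8), after quantile normalization (6) and with antibody mice 1 to 3 only (7). Cyp7b1, the oxysterol hydroxylase of the alternative route, was at 46500, 14700, 21000, 18000 and 22300 in regular diet and at 2210 to 5210 in antibody, a difference of -2.75 (SE 0.40, adjusted p = 2.6e-05). Nr0b2, the repressor SHP, fell by 1.93 and Cyp39a1, another oxysterol hydroxylase, rose by 1.45. Cyp7a1, the rate-limiting enzyme of the classic route, did not pass (0.33, 95% interval -0.65 to 1.32). Of 29 P450 enzymes of drug metabolism, 13 were lower and 6 higher, or 8 and 7 under the same total. Cyp2c29 fell by 4.61, with the caution that reads of Cyp2c genes can be split between near-identical copies. Cyp2e1, which activates DEN, was at 309000, 229000, 319000, 190000 and 331000 in regular diet and at 153000 to 390000 in antibody. Its difference of 0.06 had a 95% interval of -0.72 to 0.84, but passed after quantile normalization (0.77).

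Genes expressed more in male than in female liver were lower in 18 of 24 members and higher in 2, with a median of -2.58, although all mice were male. Hsd3b5, a male-specific steroid dehydrogenase, was at 37800, 10400, 14100, 9450 and 11100 in regular diet and at 73.4, 429, 149, 231, 40.2 and 19.2 in antibody, a difference of -7.17 (SE 0.99, adjusted p = 1.61e-05). Female-biased genes were higher in 14 of 20 members and lower in 2, with a median of 1.86. Sult1e1 (estrogen sulfotransferase) was under 10 in all regular diet mice and at 2010, 1530, 1510, 1450, 1020 and 211 in antibody. Cyp2b9, a female-biased P450 of a family of near-identical genes, rose by 6.86. Ghr, the growth hormone receptor, fell by 1.27, a call lost after quantile normalization. Of 26 liver transcription factors and hepatocyte markers, 9 were lower and 1 higher, with a median of -0.65. Under the same total 4 were lower and 2 higher, and after quantile normalization 3 and 3. Hnf4a, the master factor of hepatocyte identity, was at 27100 to 32300 and 15400 to 21400, with no overlap. Its call (-0.72, adjusted p = 0.0277) was lost without any 1 of antibody replicates 5 and 6 and regular diet replicates 2, 4 and 5.

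Stress pathways did not move as one. Of 30 NRF2 targets and pentose phosphate genes, 13 were higher and 4 lower, the latter a share near that of all genes. Nqo1, a quinone reductase, was at 290 to 438 in regular diet and 1090 to 1960 in antibody (2.08), and Srxn1 (sulfiredoxin) rose by 1.91. The unfolded protein and integrated stress response list had 11 of 25 lower and 4 higher, with a median of -0.35 that turned to 0.09 under the same total, with 6 lower and 7 higher. The chaperone Hyou1 fell by 1.63 and Nupr1, a stress-induced nuclear protein, rose by 4.21. Oxidative phosphorylation genes were lower in 20 of 38 members with none higher and a median of -0.64. This count was 12 without regular diet replicate 1, 3 under the same total, 3 with antibody mice 1 to 3 only and 5 after quantile normalization. Sdhd, a subunit of succinate dehydrogenase, was lower by 0.83 with all libraries and by 0.68 without replicate 1 of regular diet. Clock genes changed in opposite directions, with 7 of 20 higher and 6 lower. Arntl (BMAL1) fell by 2.86 and Cry1 by 1.79, while Dbp, an output gene of the opposite phase, rose by 3.68. Immediate early and heat shock genes were higher in 6 of 25 members, a share near that of all genes, and lower in 8. The counts were 7 and 12 without regular diet replicate 1, and 7 and 2 under the same total. The hour of sampling is not given in the labels, so it and the treatment cannot be told apart here. Erythroid markers were lower in 6 of 7 tested members, at a summed level of 4800 to 8960 against 13100 to 48900, in 3 without regular diet replicate 1, in 1 under the same total and in 2 with either set of 3 antibody mice.

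Among all genes, 7 of the 10 with the largest rise were Mup genes at 0 in every regular diet mouse. No direction is read from them, because their copies are nearly identical and an estimate that failed is also listed as 0. The largest rises among genes not at 0 throughout regular diet, a list chosen after the values were seen, began with Gpnmb, Mmp12 and Sult1e1. They went on with Vmn2r3, a receptor gene of the vomeronasal family (7.20), Mmp7 (7.17), Ubd, a ubiquitin-like protein induced by cytokines (6.90), Cyp2b9, and Clec4d, a lectin of macrophages and neutrophils (6.66). The largest falls included Moxd1, a copper monooxygenase-like gene, from 3800, 1100, 460, 989 and 5400 to between 1.6 and 4.93 (-8.55). Dct, known from melanin synthesis, fell by 7.39, Trhde, which degrades thyrotropin-releasing hormone, by 6.71, and Slc13a2, a citrate transporter, by 6.30.

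The same list of rises held 2 non-coding RNAs of 1 imprinted locus on chromosome 12, Rian and Mirg, and Meg3 from the same locus was added after its values were seen. They lie at 109541001 to 109571726 (Meg3), 109603940 to 109661716 (Rian) and 109729764 to 109749460 (Mirg), all on the plus strand of mm10. Meg3 was at 120, 24.9, 136, 68.8 and 70.3 in regular diet and at 4810, 7070, 7220, 9000, 8170 and 4910 in antibody. The difference was 6.51 (SE 0.61, adjusted p = 2.09e-07), and Rian rose by 6.84 and Mirg by 6.66. Values in vehicle mice ran from 393 to 6070 for Meg3, and the antibody minus vehicle difference of 1.93 did not pass (adjusted p = 0.659). Igf2, Dlk1 and Rtl1 were also added after values were seen, and are not reported here.

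Vehicle and antibody mice were compared with the same 5 regular diet mice, so their differences from regular diet share those libraries and are set side by side only. Against regular diet, 5547 genes were higher (29.8%) and 3853 lower (20.7%) in vehicle. The median difference of matrix genes was 2.28 in antibody and 2.76 in vehicle, that of lipid-associated macrophage genes 3.70 and 4.10, and that of cell cycle genes 2.37 and 2.39. For fatty acid synthesis it was -1.35 and -1.66, for bile acid genes -0.87 and -1.60, and for cholesterol synthesis -0.22 and -0.98. In the direct test of antibody against vehicle no gene passed (0%), and 1391 had an unadjusted p under 0.05 (7.47%). The 95% interval of the direct difference lay within 2-fold for 11623 genes (62.4%), and for the other genes the interval reached past 2-fold. The genes named for the smallest direct p all had an adjusted p of 0.659 in that test. They included Car5a (mitochondrial carbonic anhydrase), whose difference from regular diet was -1.27 in antibody and -2.78 in vehicle. For Tiam2 (a Rac exchange factor) the values were -2.93 and -3.73, and for Ces2a (a carboxylesterase) -3.62 and -4.35. On the other side stood Clca3a1 at 1.26 and 2.38, and Cfap161, a cilium protein listed at 0 in all regular diet mice, with medians of 15.6 in antibody and 40.5 in vehicle. Lsm11, of the histone RNA processing complex, was at -0.46 and 0.01.

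**Figure D4:**
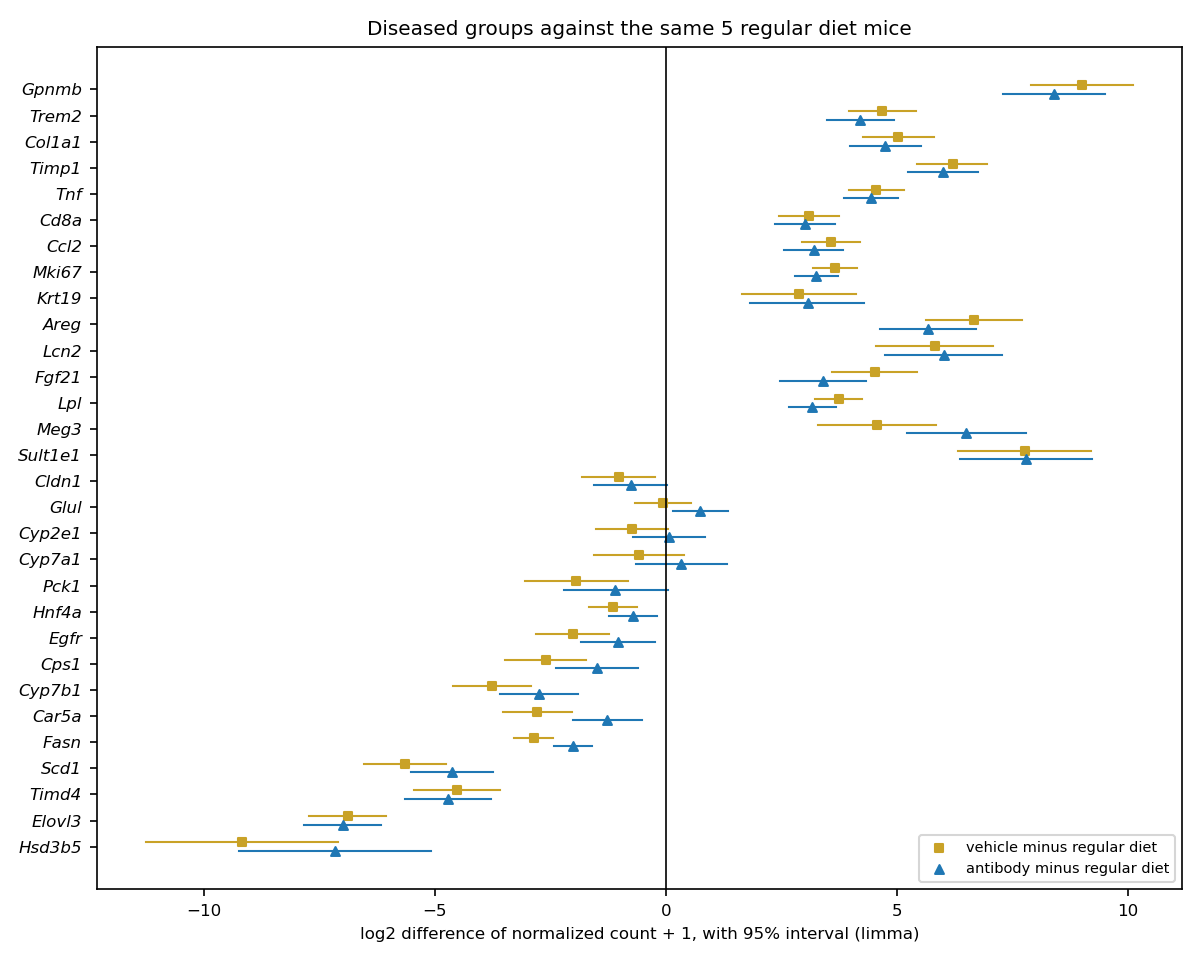
Log2 difference of the normalised count plus 1 from the same 5 regular diet mice, with 95% intervals from limma, for antibody mice (triangles) and vehicle mice (squares), for 30 genes. Intervals of the 2 diseased groups overlap for most genes drawn, the antibody difference of Cyp2e1 is 0.06, and the shared regular diet mice move both values of a gene together.

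The 6 antibody mice were not alike in every list. Antibody replicate 5 had the highest mean level of myofibroblast and portal fibroblast markers, 9.69 against 7.74 to 8.81 in the others, and of bile duct markers, 10.51 against 9.47 to 10.34. It was also highest in mesothelial markers, which mark the liver's surface cells, at 7.99 against 4.62 to 7.72, with regular diet at 3.80 to 5.84. Of 7 mesothelial markers tested, 2 were higher (28.6%, near the share of all genes) and none lower. Their summed level was 377 to 2300 in antibody and 144 to 642 in regular diet. The part of tissue at the liver surface in the values of antibody replicate 5 was not tested. Antibody replicate 6 was the lowest antibody library in male-biased genes (10.05 against 10.41 to 11.5) and in cholesterol synthesis genes (11.61 against 12.34 to 12.39). In Sult1e1 (211) it was the lowest as well. For matrix genes the antibody levels of 9.98 to 11.69 lay above the regular diet levels of 8.19 to 8.77 in all 6 mice, and for amino acid and glucose genes all 6 lay below, at 13.60 to 14.29 against 15.08 to 15.44.

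**Figure D5:**
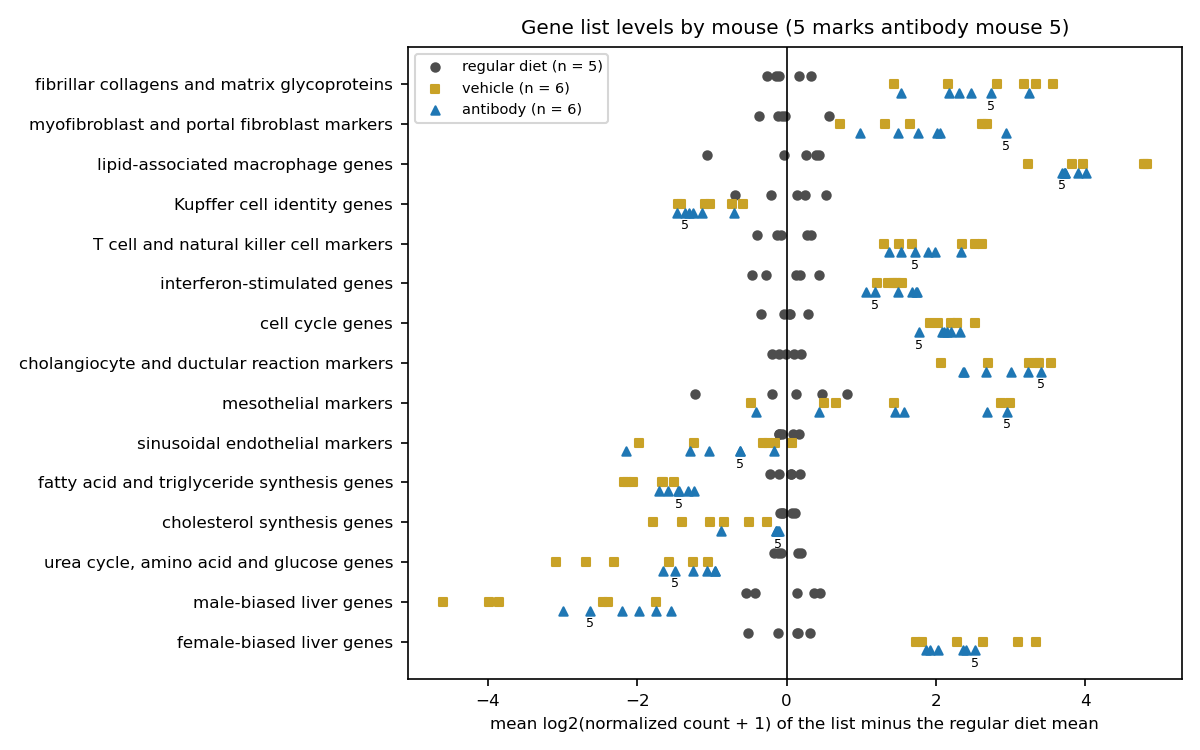
Mean log2(normalised count + 1) of the tested members of 15 gene lists in each mouse, minus the regular diet mean, with antibody mouse 5 marked. Antibody mice (triangles) lie apart from regular diet mice (circles) in the matrix, lipid-associated macrophage, T cell, interferon, cell cycle, bile duct, fatty acid synthesis, amino acid and sex-biased lists, and near them in cholesterol synthesis except for antibody replicate 6.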

How the data were processed

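RNA from non-tumorous liver was sequenced in 17 mice. The deposited table holds 1 signal value for each gene in each library, which the authors had made comparable between libraries with cuffnorm, per the labels. Cufflinks 2.2.1 and the mouse build mm10 are named in the submitters' processing notes. Aligner, annotation release and strand setting are not given in the sources used here. Whole reads could not be recovered for every gene, so no count model was used. Symbols were matched for 99.72% of identifiers in a GENCODE annotation of the same build. Failed estimates, taken as values under 0.1 beside 100 or more in the same group, touched 141 genes.

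The 18624 genes that reached 10 in 5 or more libraries were fitted on log2(value + 1), which shrinks the change of low genes, with limma 3.58.1 in R 4.3.3 (limma-trend, group as the only term, all 17 libraries). All adjusted p-values of genes are from this two-sided fit, with Benjamini-Hochberg adjustment over all of them and a threshold of 0.05, and every difference is on that scale unless stated. Single values were compared by exact permutation tests. All p-values refer to variation among individual mice. The fit was tested on simulated data for antibody against regular diet. It recovered 10.4% of 67 genes changed 1.5-fold, 31.3% of 67 changed 2-fold and 77.3% of 66 changed 4-fold, with 4 false calls. Far fewer genes were changed there than were called in the data. A gene that was not called may therefore still differ.

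The comparison, the 50 gene lists and the rules were chosen with earlier results of these data known. The named genes are a panel of disease genes, the 10 with the largest change in each direction (no overlap, mean of 50 or more in the higher group), in each list the 4 with the smallest p and 1 of the opposite direction, and 5 per direction nearest a direct call against vehicle. Other scalings, pseudocounts, filters, fits and left-out libraries were tried. Promoter windows are from RefSeq (GRCm38.p6). Some results of the comparison are not reported here.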

Additional observations from a re-analysis of the deposited data

Results flagged for a closer look

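In groups of 5 and 6 mice, 272 sets of values were examined for a single mouse far from the others, which chance alone gives in about 1 of 20 sets, and 26 were found. Regular diet replicate 1 had the high deposited total of 74.6 M. It was also high in Trem2 (310), Gata4 (1740), Tm7sf2 (16000), Apoa4 (11200), Hsd3b5 (37800) and Sdhd (21200), and low in Klrd1 (4.91), Cpt1a (7600) and Pck1 (28500). Regular diet replicate 3 was low in Itgax (21.9), Cx3cr1 (19.3), Timd4 (243) and Cdk1 (36.8).

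Among antibody mice, replicate 5 was high in Acta2 (4140) and Ccnd1 (14600) and low in Cldn1 (2430). Replicate 6 was low in Tm7sf2 (1230), Cyp2b9 (358), Sult1e1 (211) and Mirg (269). Replicate 1 was low in Cpt1a (13700) and Pck1 (19900), replicate 2 was high in Itgax (4450), replicate 3 was low in Hey1 (53) and replicate 4 was low in Pcyt1b (90.8). The causes of these values were not tested.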

How the results depend on the processing

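Of 135 named genes with a fit, 116 kept their call under all alternatives run, 19 changed it under at least 1, and no called gene turned in direction. The main counts of antibody against regular diet, 4613 higher and 2634 lower, moved most with the scale of the libraries. Setting all libraries to the same total gave 7063 and 831, and for vehicle 9369 and 1264 in place of 5547 and 3853. A minimum of 100 left fewer genes to test and gave 3065 higher and 2224 lower, and 3649 and 3332 for vehicle, so the higher counts moved more than the lower. With antibody mice 1 to 3 only there were 1677 lower, and with mice 4 to 6 only 1519, each with fewer samples. Without a filter, 15268 genes in place of 7849 had an interval within 2-fold, and 2 genes were lower in antibody than in vehicle. Distinct list members lower were 135 under the same total and 136 with mice 1 to 3 only, in place of 240. Leaving out 1 library at a time gave 4198 to 5142 higher and 2144 to 3886 lower, both maxima without regular diet replicate 1. With the replicate number as a block the counts were 4408 and 2563, and the calls of Acta2, Egfr and Hnf4a were lost among the genes named. The labels do not say that a shared number marks a shared source. Deviations of same-numbered antibody and regular diet mice correlated at -0.0501 to 0.586, over 0.1 in 3 of 5 pairs, and 1 of 5 mice on each side correlated best with its own number, so the numbers were not taken as pairs. Depth limits the low genes, which the scale understates, and a 0 in the table can be a failed estimate.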
